A study of Homo sapiens with 3 samples.

Results

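NTS (ENSG00000133636) is the gene for neurotensin, and its level was followed cell by cell in 3 single-cell RNA libraries of human embryonic stem cells grown as micropatterned colonies. It is 1 gene of the 38606 listed in each library, and it was picked because earlier results of these data showed it high under BMP4, so its levels below are a description and no test is attached to them. Neurotensin is a short peptide, cut from a larger secreted precursor, that is best known from neurons and from the N cells of the gut lining. It signals through the G protein-coupled receptors NTSR1 and NTSR2, is also bound by the sorting receptor SORT1, and is broken down outside the cell by peptidases. The cyclic AMP and AP-1 families of transcription factors are known to act on the NTS promoter in neuroendocrine cells.

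The cells were HES3 Mixl1:GFP, an established human embryonic stem cell line with a green fluorescent reporter at MIXL1, a gene of the primitive streak. All colonies were seeded with 10 µM Y-27632, a compound that helps dissociated stem cells survive, and treatment began 24 h later and lasted 48 h. The BMP4 colonies received 50 ng/mL BMP4, the CHIR colonies 6 µM CHIR99021, which activates WNT signalling by inhibiting GSK3, and the CHIR+Activin colonies 3 µM CHIR99021 with 100 ng/mL Activin A, a ligand of the NODAL pathway. About 10 colonies per treatment were pooled into 1 library each, so position within a colony is lost, no untreated library is used here, and an effect of treatment cannot be told apart from one of library. The CHIR99021 dose differed between the CHIR and CHIR+Activin colonies, so a difference between them cannot be assigned to Activin A.

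Kept cells had at least 2000 genes and at most 15% of their UMIs from mitochondrial genes (UMIs are tags that count captured RNA molecules). They numbered 9401 in BMP4, 7084 in CHIR and 6876 in CHIR+Activin, with 130592423 to 185215378 UMIs per library and a median of 12623 to 22919.5 UMIs per cell. The libraries shared 8 to 12 barcodes per pair. The embryonic stem cell label was checked on its markers, and POU5F1, a core pluripotency factor, had 896 CPM in BMP4 cells, 1042 in CHIR cells and 1070 in CHIR+Activin cells (CPM, UMIs per 1000000 counted). SOX2, another core factor that is lost from mesoderm, stood at 23.9, 71.2 and 86.3 CPM, lowest under BMP4. MIXL1 stood at 282, 171 and 174 CPM in the same order.

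The stretch just before the start of NTS is shown because factors known to act on the gene bind there. It spans chr12:85874045-85874294 on the forward strand of GRCh38.p14 in RefSeq, upstream of the first exon, and is written from 5′ to 3′ with the start site following its last base. Capitals mark the motif matches described next.
NTS promoter: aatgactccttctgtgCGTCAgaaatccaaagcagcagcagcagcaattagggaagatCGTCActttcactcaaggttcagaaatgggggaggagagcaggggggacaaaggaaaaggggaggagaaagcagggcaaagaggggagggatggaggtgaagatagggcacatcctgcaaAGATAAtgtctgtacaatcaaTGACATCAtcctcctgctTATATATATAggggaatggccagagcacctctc

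All motifs were searched on both strands, and shares are of 27305 promoters of the same length. The core of the cyclic AMP response element, TGACG, occurred as CGTCA on the reverse strand with its match 234 and 192 bases before the start, and 21.7% of promoters hold this core. The letters TGACATCA lay 51 bases before the start, and 2.45% of promoters hold them; this motif was chosen after the promoter had been read, because it is 1 base from the full element TGACGTCA. The full element, which 1.77% of promoters hold, was not among these letters. A run of overlapping TATATA matches began 33, 31 and 29 bases before the start, the usual place of a TATA box, and 3.96% of promoters hold TATATA. The GATA motif was searched as AGATAA and, with the other permitted letter, as TGATAA. It lay 72 bases before the start in the form AGATAA, and 14.9% of promoters hold either form. The AP-1 motif, searched as TGACTCA and in its other spelling TGAGTCA (4.16% of promoters), was not among these letters. Nor was the TCF/LEF motif, searched as CTTTGAA and in its other spelling CTTTGAT (6.03%), or the SMAD motif GGCGCC (16.1%). GC content was 49.2%, against a median of 58.0% over all promoters.

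NTS was a highly abundant transcript under BMP4 and a minor one in the other libraries. It gave 161957 UMIs in BMP4 cells, 7494 in CHIR cells and 8589 in CHIR+Activin cells. These counts came to 1181 CPM in BMP4 (exact 95% Poisson interval 1175 to 1186), 40.5 CPM in CHIR (39.6 to 41.4) and 65.8 CPM in CHIR+Activin (64.4 to 67.2). The order was BMP4, CHIR+Activin, CHIR, and no interval overlapped its neighbour's, but these intervals cover counting error only and say nothing of the spread between cultures. By UMIs, which are counted at the 3′ end and need no scaling by length, NTS ranked 115 among 32280 genes detected in BMP4, 4689 of 32724 in CHIR and 2916 of 31849 in CHIR+Activin.

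NTS stood 29.2-fold lower in CHIR than in BMP4, a log2 ratio of -4.87 (-4.90 to -4.83). Among the 10122 genes reaching 10 CPM on either side, 313 (3.09%) were at least 2-fold lower in CHIR, 288 (2.85%) were at least 2-fold higher, and NTS ranked 33 from the lowest. In CHIR+Activin it stood 18.0-fold lower than in BMP4, a log2 ratio of -4.17 (-4.20 to -4.13), rank 21 from the lowest of 9968 genes, of which 287 (2.88%) were at least 2-fold lower and 183 (1.84%) at least 2-fold higher. Its place among genes of its abundance is a description, since a high BMP4 level led to its choice and bounds the set. Of the 115 genes at or above its level in BMP4, NTS itself was the 1 gene at least 2-fold lower in CHIR, and likewise in CHIR+Activin. FABP5 of that set came close to the mark, at 2464 CPM in BMP4 and 1281 CPM in CHIR. Both NTS ratios share the BMP4 library. Between the other libraries, NTS was 1.63-fold higher in CHIR+Activin than in CHIR, a log2 ratio of 0.70 (0.66 to 0.75), short of the 2-fold mark that 18 of 9821 genes (0.183%) passed upward and 2 (0.0204%) downward. The plot of ratios against level shows where NTS lay.

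**Figure D1:**
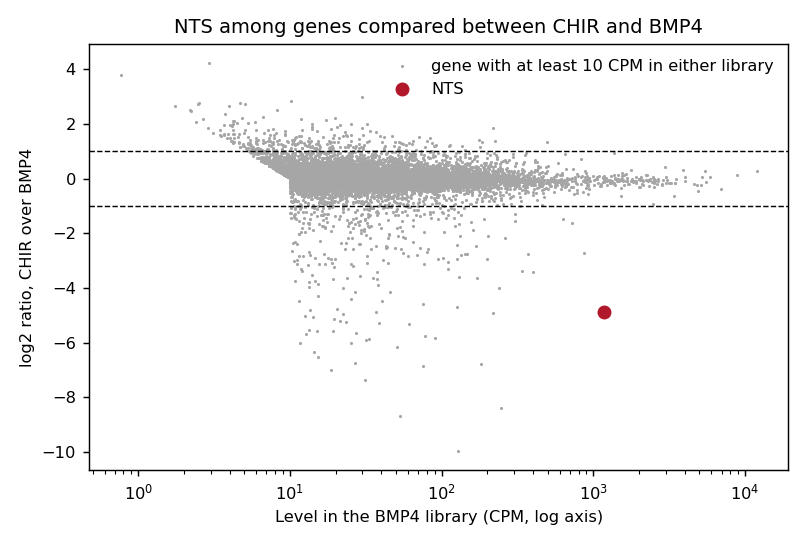
Each grey point is a gene that reached 10 CPM in BMP4 or CHIR cells, placed by its level in BMP4 (CPM, log axis) and its log2 ratio of CHIR over BMP4, and dashed lines mark 2-fold. NTS (red) lies at 1181 CPM and -4.87, below all other genes of its level or higher.

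Nearly every BMP4 cell carried NTS reads, and the amounts ran over a wide range without a gap. For a comparison at equal depth, cells were thinned to 10000 UMIs each, and 2360, 192 and 333 shallower cells of BMP4, CHIR and CHIR+Activin were left out. At least 1 NTS UMI was then found in 93.3% of 7041 BMP4 cells (exact 95% interval 92.7 to 93.9), 27.5% of 6892 CHIR cells (26.5 to 28.6) and 35.8% of 6543 CHIR+Activin cells (34.6 to 37.0). Without thinning the shares were 94.1%, 47.2% and 49.4%. The thinned mean was 11.6 NTS UMIs per cell in BMP4, 0.427 in CHIR and 0.661 in CHIR+Activin, the medians were 9, 0 and 0, and the highest cells held 113, 16 and 25. The BMP4 cells covered every step from none to many: 470 cells had 0 thinned UMIs, 1769 had 1 to 4, 1429 had 5 to 9, 2009 had 10 to 19, 886 had 20 to 29 and 478 had 30 or more.

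The cumulative curves of NTS per cell show this spread. By the ratio of variance to mean, which tends to rise with a gene's level, the spread between cells exceeded that of most genes. The ratio of variance to mean over thinned cells was 9.82 for NTS in BMP4, rank 8 of 9638 genes with at least 10 CPM, against a median gene of 1.06. It was 1.99 in CHIR (rank 125 of 9715) and 2.63 in CHIR+Activin (rank 69 of 9578), where the median gene was at 1.05 in each. The share of NTS UMIs held by the 10% of cells with the most ran the other way. Without thinning it was 32.9% in BMP4, 48.2% in CHIR and 51.2% in CHIR+Activin. Neither measure was adjusted for level, so they do not rank the libraries by relative spread. Within each library the deepest of 4 about equal groups of cells had a lower level than the shallowest, with 1108 against 1388 CPM in BMP4, 36.3 against 53.0 in CHIR and 64.5 against 71.3 in CHIR+Activin. These gaps are small beside that between BMP4 and the other libraries.

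**Figure D2:**
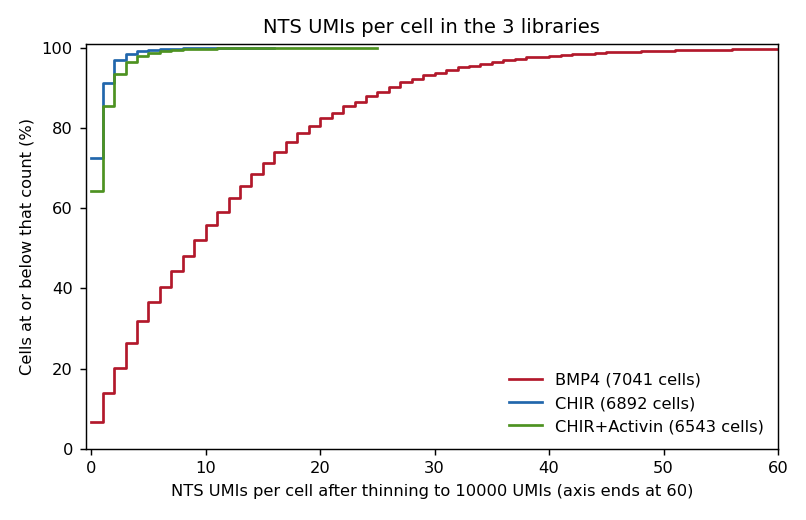
Cumulative share of cells (percent) by NTS UMIs per cell after thinning to 10000 UMIs, for BMP4 (red, 7041 cells), CHIR (blue, 6892) and CHIR+Activin (green, 6543). The CHIR and CHIR+Activin curves start at 72.5% and 64.2% of cells with 0 UMIs, and the BMP4 curve starts at 6.68% and climbs without a step; the axis ends at 60 UMIs.

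NTS RNA was also found outside cells in the BMP4 suspension. The BMP4 matrix keeps every droplet, and the 1592061 barcodes of 1 to 100 UMIs, far below the 3739 UMIs required of a cell, held 7573 NTS UMIs among 7342374 in all. That is 1031 CPM (1008 to 1055), or 0.874 times the level in cells. A droplet level of this order was not particular to NTS, which ranked 117 by level in these droplets and 115 in cells. FABP5 stood at 1958 CPM in the droplets and 2464 CPM in BMP4 cells, and APOE at 435 and 303 CPM. Barcodes above 100 and up to 1000 UMIs stood at 957 CPM, and those above 1000 but below the cell threshold at 554 CPM. These CPM values are shares of droplet UMIs and do not give the amount of free RNA per droplet. The 73901 barcodes of 10 to 100 UMIs held 5432 NTS UMIs among 5148916 in all. How many NTS UMIs of a BMP4 cell came from free RNA was not tested. Whether a cell with only a few NTS UMIs transcribes the gene was therefore left undecided. Droplets outside cells of the CHIR and CHIR+Activin libraries were not analysed here.

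NTS differed widely between clusters of BMP4 cells. Cells of each library were clustered with NTS left out, and clusters were named here from marker genes, so the names may differ from the study's own. The unnamed cluster 10 (139 shallow cells) had 85.3 CPM of NTS (64.9 to 110) and the epiblast-like cluster 8 (853 cells) 189 CPM (181 to 196), which were 8.27% and 18.3% of the droplet level. Cluster 10 passed for the epiblast markers DPPA4, USP44, TERF1, ESRG and PRDM14 but not for SOX2 or NANOG, and its leading genes, such as GRIK2, RMST and TMEM132B, which also lead cluster 8, were no markers of that list. Epiblast is the pluripotent layer from which the germ layers arise, and cluster 8 was led by SOX2, USP44 and LEFTY1, among others. At least 1 NTS UMI was seen in 31.7% of cluster 10 cells, at a median depth of 4552 UMIs, and in 75.5% of cluster 8 cells, at 13740 UMIs. These shares without thinning are the ones beside which the 94.1% of all BMP4 cells is to be read.

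The highest BMP4 clusters included a caudal epiblast-like, an amnion-like and 3 unnamed ones. The caudal epiblast-like cluster 3 (519 cells) stood at 2419 CPM (2381 to 2457). Its caudal epiblast markers were CDX1, CDX2 and WNT8A, though none was among its 10 leading genes. It also passed for MSGN1 of nascent mesoderm and for TBX3 and TBX20 of lateral or extraembryonic mesoderm. The unnamed cluster 4 (556 cells) was led by CDH11, BMPER and HAND1. It passed for 11 nascent mesoderm markers, MESP1, MESP2, TBX6 and MSGN1 among them, and for the lateral mesoderm markers TBX3 and FOXF1, and it stood at 2188 CPM (2155 to 2222). The unnamed cluster 9 (347 cells), led by TACR1 and ITGB8, stood at 1916 CPM (1878 to 1954). The amnion-like cluster 14 (817 cells; GATA3, TFAP2A and ISL1) stood at 1733 CPM (1712 to 1755) and alone held 15.4% of all NTS UMIs of the library. The unnamed cluster 13 at 1782 CPM (1490 to 2114) had only 11 cells, and its interval overlapped those of both neighbours in the order.

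Between these ends lay the nascent mesoderm-like cluster 12 (1025 cells) at 1541 CPM and the primordial germ cell-like cluster 6 (804 cells; PRDM1, SOX17 and TFAP2C) at 1388 CPM. The unnamed clusters 1 and 5 at 1125 and 1115 CPM had overlapping intervals, and the primitive streak-like cluster 2 followed at 1058 CPM. Cluster 2 was named on EOMES, FGF4 and FGF17, and none of these was among its leading genes. Cluster 1 passed for MIXL1, EOMES, LHX1, GSC and FGF17 of the same list, and for more markers of nascent mesoderm. The unnamed clusters 11 and 7 stood at 782 and 516 CPM. Cluster 7 was led by KIAA0825 and XACT, among others, and held 1295 cells. Clusters accounted for 43.7% of the variance of log NTS between BMP4 cells, against 1.87% in CHIR and 2.03% in CHIR+Activin, where the median cell had 0 NTS UMIs. The level relative to the droplets ran from 8.27% in cluster 10 to 235% in cluster 3.

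The extremes of single cells followed the same clusters. Of the 478 BMP4 cells with 30 or more thinned NTS UMIs, 104 were in cluster 4, 98 in the amnion-like cluster 14, 87 in the caudal epiblast-like cluster 3 and 50 in cluster 9. These were 23.0%, 15.4%, 25.1% and 16.6% of the thinned cells of those clusters. Clusters 8 and 10 had 0 such cells, of 680 and 1 thinned cells. Of the 470 cells with 0 thinned UMIs, 222 were in cluster 8 and 142 in cluster 7.

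Clusters of the other libraries spanned a narrower range. In CHIR, the 14 clusters, all unnamed, ran from 16.6 CPM (8.86 to 28.4) in the 87 shallow cells of cluster 14 to 56.7 CPM (52.6 to 61.0) in cluster 2, which FOXA2, a factor of endoderm and axial mesoderm, led. In CHIR+Activin, cluster 12 (572 cells) stood at 128 CPM (121 to 135), while 10 of the other 11 clusters lay between 48.1 and 71.7 CPM and the 73 shallow cells of cluster 11 stood at 11.6 CPM (3.76 to 27.0). Cluster 12 stayed unnamed, since its leading genes SOX17, LHX1, GATA6, BMP2, DKK1 and CER1 belong to endoderm and to streak. It also passed for the mesoderm markers MESP1, TBX6, APLNR, PDGFRA and HAND1. It was 8.32% of cells and held 16.8% of the NTS UMIs, and without it the library's level was 59.9 CPM in place of 65.8. Of the 17 CHIR+Activin cells with 10 or more thinned NTS UMIs, 14 were in cluster 12. The 49 CHIR cells with 5 or more were spread over 13 of the 14 clusters, with at most 7 in any.

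**Figure D3:**
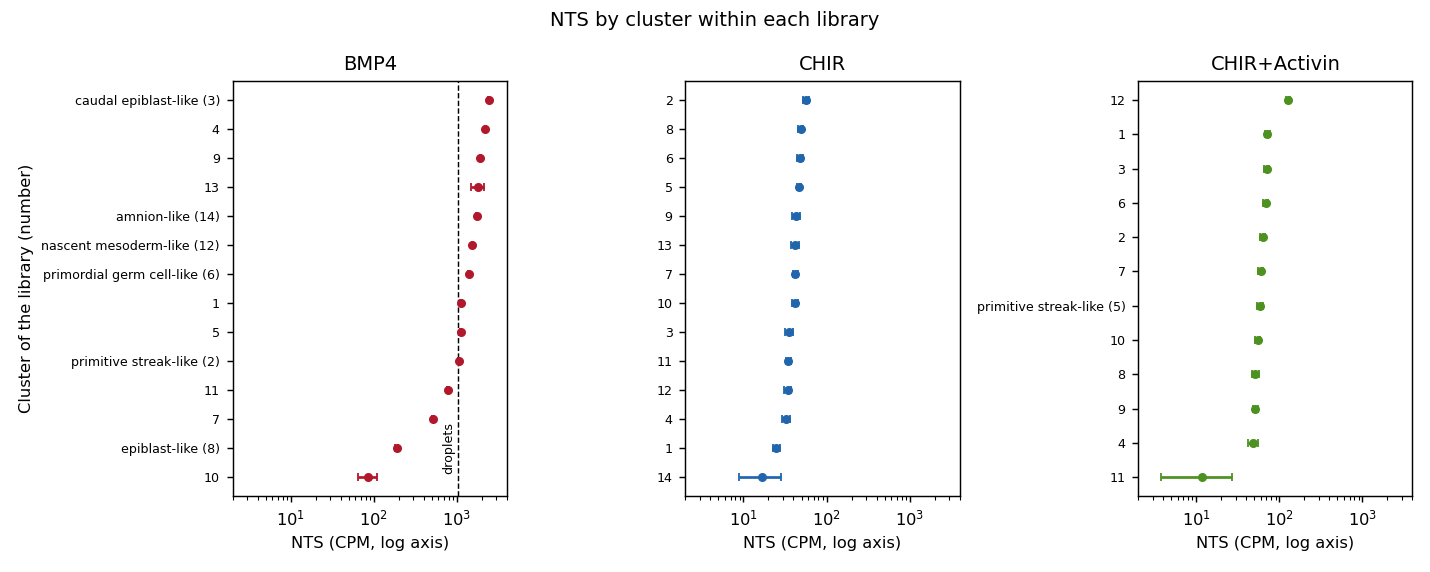
NTS level (CPM, log axis) of every cluster of each library, ordered by level, with exact 95% Poisson intervals as bars; the dashed line in the BMP4 panel is the level of 1031 CPM in droplets of 1 to 100 UMIs. BMP4 clusters run from 85.3 to 2419 CPM on both sides of that line, and cluster 12 of CHIR+Activin, at 128 CPM, stands above the other clusters of its library.

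NTS was also read, without clusters, in thinned cells chosen by UMIs of marker genes. BMP4 cells with at least 2 UMIs of CDX2, a factor of posterior embryo and of trophectoderm, had 2014 CPM of NTS (181 cells; 1950 to 2081). Those with at least 2 UMIs of HAND1, a factor of lateral and extraembryonic mesoderm, had 1618 CPM (1543 cells; 1598 to 1639), and those with both GATA3 and TFAP2A, a pair of amnion and surface ectoderm, 1529 CPM (481 cells). Cells with both SOX17 and TFAP2C, a pair of primordial germ cells, had 1442 CPM (465 cells). TBXT, the streak and mesoderm factor, marked 3598 cells at 1272 CPM, and MESP1 without HAND1 marked 1371 cells at 1237 CPM, below the SOX17 and TFAP2C cells, although the nascent mesoderm-like cluster 12 lay above the germ cell-like cluster 6. Cells with at least 2 UMIs of CER1 (2048 cells) or of MIXL1 (4206 cells) stood at 1106 and 1138 CPM, against 1183 and 1194 CPM in their other cells.

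At the low end, cells with SOX2 and no TBXT had 314 CPM (552 cells; 300 to 329). Cells with both SOX2 and TBXT lay at 703 CPM (430 cells; 678 to 728), between the SOX2 cells without TBXT and the TBXT cells. The few cells with both SOX17 and FOXA2, a pair of definitive endoderm, had 778 CPM (40 cells; 693 to 869). With at least 2 FOXA2 UMIs and no SOX17 the level was 463 CPM, but in 19 cells (371 to 571).

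In CHIR+Activin, 2 small gates stood above the rest. Its 22 cells with at least 2 HAND1 UMIs had 368 CPM (292 to 458), against 65.1 CPM in its other cells. Its 33 cells with at least 2 MESP1 UMIs and no HAND1 had 370 CPM (307 to 441), against 64.6 CPM. These levels are means over uneven cells. At least 1 NTS UMI was found in 16 of the 22 and 23 of the 33 cells, with medians of 3 and 1. The intervals take no account of that spread between cells. The HAND1 and MESP1 cells made up 0.336% and 0.504% of the thinned cells and held 81 and 122 thinned NTS UMIs, against 1361 in the SOX2 cells without TBXT, so most of the library's NTS lay outside them. Their NTS was still below the 1618 and 1237 CPM of the BMP4 cells of the same gates. TBXT cells of CHIR+Activin stood at 100 CPM (775 cells; 93.2 to 107) and SOX2 cells without TBXT at 56.4 CPM (2412 cells; 53.5 to 59.5). In CHIR no cell of 6892 passed the HAND1 gate, which allows a share of up to 0.0435%, and 2 passed the MESP1 gate. The CHIR gates with at least 20 cells lay between 36.5 and 45.9 CPM, TBXT at the upper end and SOX2 without TBXT at the lower.

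**Figure D4:**
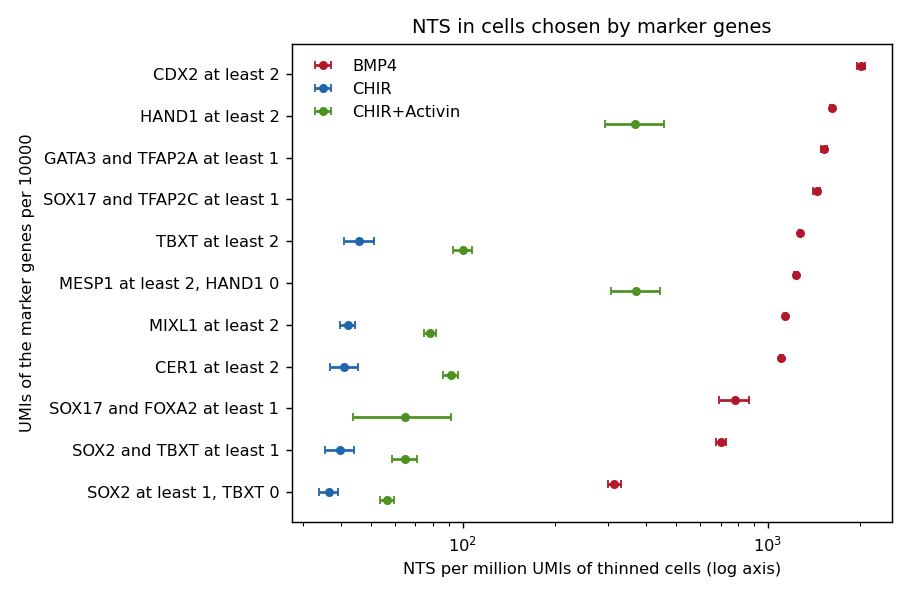
NTS level (CPM, log axis) in thinned cells chosen by UMIs of marker genes, in BMP4 (red), CHIR (blue) and CHIR+Activin (green). Bars are exact 95% Poisson intervals. Gates with under 20 cells are not drawn, nor are the gates of SOX17 alone and of FOXA2 without SOX17. BMP4 cells run from 314 CPM with SOX2 and no TBXT to 2014 CPM with CDX2, and the HAND1 and MESP1 cells of CHIR+Activin, at 368 and 370 CPM, stand above the rest of their library.

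Companion genes were read in thinned cells from Pearson's r with NTS, and from the level in cells with at least 2 NTS UMIs over that in cells with 0. All genes of a cell share its library, its droplet and its free RNA, so r is a description over 7041 cells and no replicate measure. In BMP4, 6057 cells had at least 2 and 470 had 0, with similar median depths before thinning of 14435 and 14164.5 UMIs and median mitochondrial shares of 4.07% and 3.82%. Of 9637 genes with at least 10 CPM, 230 (2.39%) were at least 2-fold higher in the NTS-positive cells and 146 (1.51%) at least 2-fold lower. Pearson's r ran from -0.55 to 0.44 and was above 0.1 for 391 genes and below -0.1 for 565.

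The genes that went with NTS in BMP4 were led by a fatty acid-binding protein and by genes of the hyaluronan matrix. FABP5, which carries fatty acids in the cytosol, had the highest r, 0.44, and was 1.80-fold higher in NTS-positive cells. HAS2, which makes hyaluronan, followed with r 0.39 and a 3.10-fold higher level. HAPLN1, which links hyaluronan to proteoglycans, had r 0.38 and stood 12.1-fold higher, at 8.09 CPM in the cells without NTS and 97.5 CPM in those with it. Both matrix genes climbed at each step of NTS: HAS2 from 128 CPM at 0 NTS UMIs over 345 CPM at 5 to 9 to 574 CPM at 30 or more, and HAPLN1 from 8.09 over 74.3 to 206 CPM.

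Mesodermal genes were also among the leading 10. MESP1, which starts the programme of early mesoderm, had r 0.35 and was 4.87-fold higher. TBX3, a T-box factor of extraembryonic and lateral mesoderm, had r 0.34 and was 7.64-fold higher. The cells' own BMP4 transcript, which encodes the ligand given to this library, had r 0.33 and was 8.94-fold higher, with 5.53 CPM at 0 NTS UMIs and 124 CPM at 30 or more. MESP1 levelled off, at 369 CPM in cells with 20 to 29 NTS UMIs and 366 CPM at 30 or more. The remaining genes of the leading 10 were RHOBTB3 (r 0.35, 3.85-fold), ANP32B, a nuclear histone-binding protein (r 0.35, 1.69-fold), PCAT14, a long noncoding RNA (r 0.34, 6.23-fold), and CA12, a carbonic anhydrase of the cell surface (r 0.34, 4.33-fold).

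The genes with the lowest r included several known from pluripotent cells. KIAA0825 had the lowest r, -0.55, and stood 3.16-fold lower in NTS-positive cells. It was at 544 CPM in cells with 0 NTS UMIs, 216 CPM at 5 to 9 and 24.1 CPM at 30 or more, and it was also among the 5 lowest r of the CHIR and CHIR+Activin cells, at -0.07 and -0.09. AK4, a mitochondrial adenylate kinase, had r -0.46 and was 3.44-fold lower. TERF1, a telomere-binding protein abundant in pluripotent cells, had r -0.41 and was 2.75-fold lower. The long noncoding RNAs XACT and ESRG, both known from human pluripotent cells, had r -0.40 each and were 2.24-fold and 2.32-fold lower.

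**Figure D5:**
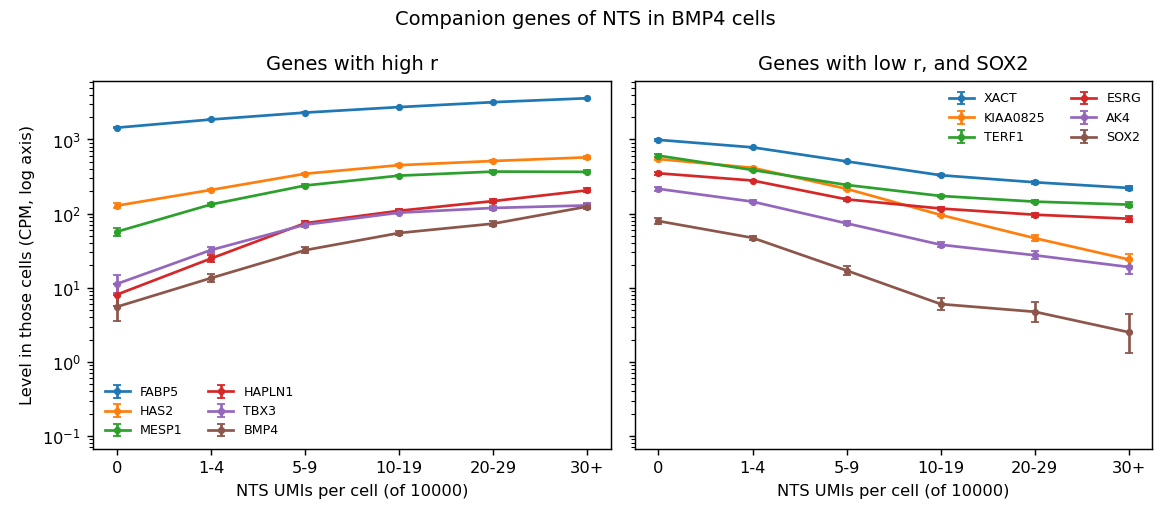
Level (CPM, log axis) of companion genes in BMP4 cells grouped by thinned NTS UMIs per cell, with exact 95% Poisson intervals; left, 6 genes with high r, right, the 5 genes with the lowest r and SOX2. HAPLN1 climbs from 8.09 to 206 CPM between cells with 0 and with 30 or more NTS UMIs, and KIAA0825 drops from 544 to 24.1 CPM.

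Much of this lay between clusters. With each cluster's mean taken off, r dropped to 0.18 for FABP5, 0.15 for HAS2 and 0.14 for HAPLN1, and to -0.25 for KIAA0825 and -0.08 for TERF1. Some values turned sign: LHX1 went from 0.12 to -0.06, CER1 from 0.02 to -0.18 and MGAT4C, a neighbour of NTS, from -0.10 to 0.04. When clusters 8 and 10 were left out, chosen with the values in view, the genes at least 2-fold lower numbered 61 in place of 146.

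Fewer genes were 2-fold apart with NTS in the other libraries. In CHIR (605 cells with at least 2 NTS UMIs, 4994 with 0), r ran from -0.07 to 0.09 and 0 of 9714 genes were at least 2-fold apart in either direction (0.0% each). The leading genes were TUBB2B (r 0.09), KRT18, SEC61G, APOE, S100A10, ANXA5, FAM162A, LINC01356, COX6C and ENSG00000289533. EOMES, a streak and endoderm factor, had the lowest r (-0.07), followed by MT-ND5, MT-CO2, KIAA0825 and ANOS1. In sparse counts, values this small are no finding. Most of the CHIR cells with at least 2 UMIs had no more than 4 (556 of 605), so the split separates high from low cells poorly.

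In CHIR+Activin (951 and 4201 cells), r ran from -0.10 to 0.13, with 2 of 9577 genes (0.0209%) at least 2-fold higher and 0 (0.0%) at least 2-fold lower. The 2 genes were LHX1, a factor of the anterior streak (r 0.13, 2.97-fold), and CNKSR3, a scaffold protein (r 0.08, 2.03-fold). HAS2 was again near the top, with r 0.12 and a 1.73-fold higher level, followed by CYP26A1, which degrades retinoic acid (r 0.10, 1.95-fold). CER1, GATA6, PDE4D, TBXT, PLXNA2 and COL5A2 completed the leading 10, with r of 0.09 each and 1.43-fold to 1.89-fold higher levels. In the 17 cells with 10 or more NTS UMIs, HAS2 stood at 547 CPM and LHX1 at 406 CPM, against 93.1 and 22.7 CPM in cells with 0. The counts depend on the split. With at least 5 NTS UMIs (115 cells with 5 to 9 and the 17 with 10 or more), 74 of the 9577 genes were at least 2-fold higher and 82 lower. In so few cells a gene near 10 CPM has few UMIs, and how many of these genes reflect counting error was not tested. Without thinning 16 were higher. The lowest r belonged to TCF7L1, a repressor of WNT targets (-0.10, 1.27-fold lower), ENSG00000274090, KIAA0825, TERF1 and ENSG00000254277.

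Lists of cell type markers were read the same way, as counts of members at least 2-fold apart between NTS-positive and NTS-zero BMP4 cells, beside 2.39% higher and 1.51% lower over all genes and a median log2 ratio of 0.00. Members under 10 CPM over the whole library were not measured, and since most BMP4 cells were NTS-positive, this floor leaves out members that are low in those cells. The lists were written with earlier results of these data known, so their counts are a description. Of the 470 NTS-zero cells, 222 were in the epiblast-like cluster 8 and 142 in cluster 7. The folds are therefore largely a contrast with those clusters, and they were not recomputed within clusters. All 9 measured members of the nascent mesoderm list of 12 were higher, with a median log2 ratio of 2.13. MESP2 (6.27-fold) and APLNR, the apelin receptor (5.51-fold), were at the top, and DLL3 (2.94-fold) and PDGFRA (2.01-fold) at the bottom. Of the lateral or extraembryonic mesoderm list, 4 of 5 measured members of 15 were higher, with a median of 2.93. HAND1 stood 14.3-fold higher, at 9.79 CPM without and 140 CPM with NTS, while GATA4 was 2.61-fold higher and the collagen COL1A1 1.42-fold lower.

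All 5 measured amnion-like genes of 13 were higher (median 2.57), from TFAP2C (2.99-fold) and BAMBI (3.81-fold) to GATA3 (6.46-fold) and TFAP2A (7.05-fold). Of the caudal epiblast list, 6 of 8 measured members were higher (median 1.50), with WNT5A, a noncanonical WNT ligand, 7.66-fold and CDX2 7.33-fold, and with NKX1-2 (1.88-fold) and FGF17 (1.50-fold) below the mark. In the definitive endoderm list 4 of 7 were higher (median 1.01), with PRDM1 4.11-fold and GATA6 3.14-fold higher, and FOXA3 and KIT 1.19-fold and 1.55-fold lower. In the primordial germ cell-like list 3 of 5 were higher (median 1.01), PRDM1, TFAP2C and SOX17 (2.01-fold), which other lists also hold, while PDPN stood 1.57-fold higher. In the primitive streak list 2 of 11 were higher (median 0.39), LHX1 (2.56-fold) and TBXT (2.28-fold), with NODAL and FGF4 1.16-fold and 1.10-fold lower. Of the 3 measured anterior streak and axial genes, LHX1 was the 1 that was higher, and OTX2 and GSC stood at 1.13-fold and 1.09-fold.

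The epiblast list went the other way, with 5 of 14 measured members lower, 0 higher and a median of -0.89. SOX2 was 5.17-fold lower, at 79.4 CPM without and 15.3 CPM with NTS, and USP44, a deubiquitinase, 3.38-fold lower, whereas ZFP42 (1.03-fold higher) and SALL4 (1.13-fold lower) hardly differed. POU5F1 was 1.18-fold lower. Of the neural ectoderm and the haemato-endothelial lists, 2 of 12 members each were measured, and 0 were 2-fold apart. NES and ZIC2 of neural ectoderm stood 1.03-fold and 1.14-fold lower, and KDR and EGFL7 of blood and endothelium 1.14-fold higher and 1.14-fold lower.

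Among signalling targets in BMP4 cells, 4 of 8 measured BMP targets were higher and 0 lower (median 0.94). BAMBI, a decoy receptor (3.81-fold), and ID4, an inhibitor of bHLH factors (3.53-fold), were at the top, and ID2 (1.57-fold higher) and SMAD7 (1.16-fold lower) at the bottom. Of 10 WNT targets 3 were higher and 0 lower (median 0.55), with LGR5, an R-spondin receptor, 4.86-fold and NKD1 2.42-fold higher, and AXIN2 and ZNRF3 1.19-fold and 1.06-fold lower. Of 9 FGF and ERK targets 0 were higher and 1 lower, the phosphatase DUSP6 (2.26-fold lower).

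Few members of the cell state lists were 2-fold apart with NTS in BMP4 cells. Over all genes the shares were also low, at 2.39% higher and 1.51% lower, so these counts do not set the lists apart. The S phase and the G2 and mitosis lists had 0 of 20 and 0 of 18 members 2-fold apart, with medians of 0.06 and 0.09. The glycolysis list had 0 of 16, and 2 of the 16 stood above a ratio of 1, with a median of -0.32, from HK1 (1.34-fold higher) to PGK1 (1.66-fold lower). In the integrated stress response list 1 of 8 was lower, DDIT4 (3.10-fold lower), 2 of 8 stood above a ratio of 1, and the median was -0.32. In CHIR cells 0 members of any list were 2-fold apart, but so were 0 of all 9714 genes. In CHIR+Activin cells LHX1 alone was, in the 2 lists that hold it, beside 2 of all 9577 genes (0.0209%). Some lists had few members measured there, such as 2 of the 12 nascent mesoderm genes in each of these libraries.

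The peptide's receptors were hardly detected in any library. NTSR1, the high-affinity receptor, gave 31, 65 and 42 UMIs in BMP4, CHIR and CHIR+Activin cells, or 0.226, 0.351 and 0.322 CPM, and NTSR2 gave 1, 9 and 8 UMIs. SORT1, the sorting receptor that also binds neurotensin, was present in all, at 18.0, 25.8 and 24.3 CPM. Its relative SORL1 stood at 47.4, 49.8 and 45.1 CPM, SORCS1 at 7.71, 15.8 and 11.7 CPM, SORCS2 at 3.03, 2.81 and 2.89 CPM and SORCS3 at 3.90, 9.35 and 9.01 CPM. Within BMP4 cells SORT1 and SORL1, the 2 measured members of 7, stood 1.12-fold and 1.45-fold lower in NTS-positive cells.

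Among enzymes that process peptide precursors, the prohormone convertases of neuroendocrine cells, PCSK1 and PCSK2, were low, and PAM was above NTS itself in CHIR and CHIR+Activin. PCSK1 and PCSK2 stood at 2.89, 5.77 and 3.57 CPM and at 1.25, 0.610 and 0.666 CPM over BMP4, CHIR and CHIR+Activin cells. The broadly expressed convertases stood higher: FURIN at 19.2, 12.2 and 13.2 CPM, PCSK5 at 24.2, 42.6 and 42.8, PCSK6 at 8.52, 9.32 and 9.23 and PCSK7 at 28.2, 22.6 and 24.5. The carboxypeptidases CPE (14.1, 12.7 and 13.8 CPM) and CPD (30.2, 27.1 and 24.5 CPM), which trim the cut ends, were alike in all. PAM, which amidates peptides, stood at 52.4, 109 and 81.2 CPM, lowest under BMP4. The convertase chaperone SCG5 stood at 11.4, 17.1 and 13.0 CPM and the convertase inhibitor PCSK1N at 3.82, 3.59 and 3.44 CPM. Of 7 measured members of 11 in BMP4 cells, 0 were higher and 2 lower with NTS, SCG5 (2.25-fold) and PCSK5 (2.01-fold), while FURIN stood 1.76-fold higher, PCSK7 1.30-fold and CPD 1.04-fold higher, CPE 1.08-fold and PAM 1.89-fold lower.

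Of the peptidases that break down neurotensin, ACE, the least abundant, differed most between libraries. NLN, neurolysin, was the most abundant of them at 144, 157 and 149 CPM over BMP4, CHIR and CHIR+Activin cells, followed by PREP at 65.5, 84.5 and 76.8 CPM. THOP1 stood at 19.5, 20.7 and 20.1 CPM, MME at 14.1, 14.5 and 12.7 CPM, ECE1 at 20.9, 17.6 and 16.5 CPM and ACE at 2.15, 0.907 and 1.03 CPM, over 2-fold higher under BMP4 than in either other library. Of 5 measured in BMP4 cells 0 were 2-fold apart with NTS, and the values ran from ECE1, 1.20-fold higher, and THOP1, 1.10-fold higher, over MME and PREP to NLN, 1.19-fold lower.

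Other genes of peptide secretion were compared in the same cells. Of 24 other peptide precursors, 4 were measured and 1 was higher with NTS in BMP4 cells, against 2.39% over all genes. It was GRP, gastrin-releasing peptide (4.41-fold, at 3.83 CPM without and 16.9 CPM with NTS), which met the minimum of 10 CPM only through cells with NTS. GAL, the galanin precursor, was abundant in every library, at 3383, 2196 and 2909 CPM over BMP4, CHIR and CHIR+Activin cells, and stood 1.38-fold higher with NTS. NMU stood 1.10-fold higher and NMB 1.11-fold lower. The granule genes SCG3 and CADPS, 2 measured of 8, stood 1.45-fold and 1.26-fold lower. Of the transcription factors known at the NTS promoter, 8 of 13 were measured and 1 was higher with NTS, the glucocorticoid receptor NR3C1 (2.10-fold), while JUND stood 1.13-fold higher, and FOS and JUN stood 1.46-fold and 1.99-fold lower.

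Of the genes next to NTS on chromosome 12, in the order of RefSeq GRCh38.p14, RASSF9, the nearest on the side of lower coordinates, was the 1 with a like pattern over the libraries. RASSF9 stood at 10.9, 0.821 and 1.04 CPM over BMP4, CHIR and CHIR+Activin cells. In BMP4 cells it was 6.41-fold higher with NTS (r 0.17, and 0.07 within clusters). It had 1.91 CPM without and 12.3 CPM with NTS, so only cells with NTS brought it over the minimum of 10 CPM. The lower value rests on few UMIs. MGAT4C, the nearest on the other side, stood at 34.0, 51.0 and 54.2 CPM and was 1.98-fold lower with NTS (r -0.10, and 0.04 within clusters). LINC02820, beyond RASSF9, stood at 3.20, 5.98 and 4.58 CPM, and LINC02258, beyond MGAT4C, gave 2, 0 and 2 UMIs.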

How the data were processed

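The 3 libraries were 10x Genomics 3′ single-cell libraries, 1 channel per treatment, per the labels' protocols. The values deposited are UMI counts for each gene in each barcode, not normalized, and the file headers give Cell Ranger 8.0.1 as their source. The submitters' processing notes also name Seurat. Which genome build and annotation lie behind the counts is not given in the sources read, so coordinates are those of RefSeq GRCh38.p14 and apply to the printed promoter alone. The CHIR and CHIR+Activin matrices hold 7706 and 7391 barcodes called as cells, and the BMP4 matrix holds 1935344 barcodes of all kinds. BMP4 cells were the 9440 barcodes with at least 3739 UMIs (10% of the 99th percentile of the top 10000), with 92.6% of the library's UMIs. The filter on genes and mitochondrial UMIs then removed 39 BMP4, 622 CHIR and 515 CHIR+Activin barcodes.

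Levels are NTS UMIs over all UMIs of kept cells, as CPM, with exact Poisson intervals. Shares carry exact Clopper-Pearson intervals, and both cover counting error only. With 1 library per treatment no test was run and no p-value is given. Thinning drew 10000 UMIs per cell without replacement. Cells of each library were clustered on their own (scanpy 1.11.5, Python 3.11.15; log of counts per 10000 in a cell, 2000 variable genes without NTS, 30 components, 20 neighbours, Leiden resolution 1). A cluster was named where at least 3 markers of a type passed 2-fold over the other cells and its 10 leading genes did not favour another type; a cluster under 50% of its library's median depth with none of that type's markers among them stayed unnamed, a limit set with the values in view. A Scrublet procedure, with 2 simulated doublets per cell, marked 2, 0 and 4 cells by its automatic threshold and so did not work. Doublets were kept, and removal of the highest-scoring 6% was an alternative.

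The gene, the gene lists and the tests were chosen with earlier results of these data known. Named genes were the 10 highest and 5 lowest r with NTS per library, all members of the receptor, processing and peptidase lists, up to 2 largest and 2 smallest folds of every other list, and the 2 genes on each side of NTS. The list of NODAL targets is not reported here. The companion step was tested on simulated data. Alternatives were other cell filters, depths, scalings, level minimums, NTS thresholds and clustering resolutions.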

Additional observations from a re-analysis of the deposited data

Results flagged for a closer look

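NTS was also present in the barcodes that the cell filter removed and that enter no value above. The 39 such barcodes of BMP4 held 153 NTS UMIs, or 869 CPM. The 622 of CHIR held 51 NTS UMIs, or 30.4 CPM. The 515 of CHIR+Activin held 61 NTS UMIs, or 46.9 CPM. The 3 levels keep the order of the kept cells, and each lies above what a count of 0 would allow (17.0, 1.79 and 2.31 CPM).

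The ratio of some genes was above 1 in 1 library and below 1 in another, given as log2 ratios of NTS-positive over NTS-zero cells. These differences between libraries were not tested, and each library is a single sample. FAM162A stood at -1.06 in BMP4 and 0.31 in CHIR. ENSG00000289533 stood at -2.45 in BMP4 and 0.28 in CHIR. The streak factor EOMES stood at 0.31 in BMP4 and -0.39 in CHIR, but its r with NTS was below 0 in both, at -0.04 and -0.07. CER1, an extracellular antagonist of NODAL and other ligands, stood at 0.71 in BMP4, -0.28 in CHIR and 0.67 in CHIR+Activin, while its r in BMP4 was 0.02, and -0.18 within clusters. GATA6, a factor of endoderm and mesoderm, stood at 1.65, -0.47 and 0.84 in that order. PLXNA2, a semaphorin co-receptor, stood at 1.76, -0.43 and 0.91.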

How the results depend on the processing

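Of the values recomputed under the alternatives none changed direction, while r within clusters turned sign in BMP4 for LHX1, CER1 and MGAT4C, which were outside that recomputation. Of the values that answer a comparison 65 stayed within their limits and 57 moved beyond them, of the others 176 and 19, and the cause of the moves below was not tested. No paired analysis was possible because each treatment has 1 library. The NTS level in BMP4, CHIR and CHIR+Activin was 1135, 36.8 and 58.0 CPM without the 1% of cells highest in NTS, 1486, 50.8 and 83.5 CPM without mitochondrial and ribosomal protein genes in the total, and 1192 CPM in BMP4 without likely doublets. Shares of cells with NTS were 86.8%, 16.5% and 22.9% when thinned to 5000 UMIs, 94.1%, 47.2% and 49.4% without thinning, and 86.0%, 8.78% and 14.5% for at least 2 UMIs. The log2 ratio was -4.91 (CHIR over BMP4) and 0.77 (CHIR+Activin over CHIR) with TMM scaling. Counts of genes 2-fold lower and higher over all genes with 1 UMI and over those with 50 CPM were 2526 and 2575 against 96 and 90 (CHIR over BMP4), 2578 and 1764 against 82 and 63 (CHIR+Activin over BMP4), and 1209 and 788 against 0 and 4 (CHIR+Activin over CHIR, where TMM scaling gave 1 lower). Droplets of 10 to 100 UMIs had 1055 CPM and those above 100 and up to 1000 had 957 CPM. The highest CHIR cluster of at least 50 cells was 1.55-fold over the lowest at resolution 0.5, against 3.41-fold.

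Genes 2-fold higher with NTS in BMP4 numbered 65 at 50 CPM and 797 at 1 CPM, and those lower 41 and 649, with 243 lower without thinning. In CHIR, 2 were higher and 1 lower without thinning, and 32 and 211 at 1 CPM. In CHIR+Activin, 16 were higher without thinning, 1 with at least 1 NTS UMI, 74 with at least 5 (in only 132 cells), 0 at 50 CPM and 58 at 1 CPM. Of those lower there, 1 was found without likely doublets, 82 with at least 5 NTS UMIs and 102 at 1 CPM. The processing list had 1 lower member in BMP4 with at least 1 NTS UMI. Chosen after the data were seen were ratios of thinned means (-4.76 for CHIR and -4.13 for CHIR+Activin, each over BMP4, and 0.63 for CHIR+Activin over CHIR), CHIR+Activin without cluster 12 (59.9 CPM) and BMP4 without clusters 8 and 10 (61 genes lower). At 10000 UMIs per cell the median CHIR and CHIR+Activin cell had 0 NTS UMIs, so single cells there are poorly ranked by NTS.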
